A study of Mus musculus with 26 samples.

Results

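The regions described here are stretches of chromatin that carried a called H3K27ac region in every LPS library of RAW264.7 cells, of both the Nur77 and the GFP line, and in no untreated library. H3K27ac is acetylation of lysine 27 of histone H3. Joining the called regions of all 8 H3K27ac libraries at any overlap of 1 bp or more gave 77715 merged regions, and 497 of them (0.640%) met this rule. They were chosen by the H3K27ac calls themselves, so their gain of H3K27ac is a description and was not tested.

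H3K27ac marks active promoters and enhancers. Macrophages sense lipopolysaccharide (LPS), a component of the outer membrane of Gram-negative bacteria, through Tlr4, and the signal reaches NF-kB and AP-1 transcription factors within minutes. At stretches that lack the mark in resting macrophages, arriving factors can recruit acetyltransferases, and RNA polymerase II (Pol II) often transcribes such enhancers as well as the genes. Nur77, the product of Nr4a1, is an orphan nuclear receptor that is itself induced by LPS and is known for restraining inflammatory gene expression in macrophages.

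RAW264.7 is a mouse macrophage line. The Nur77 line made HA-tagged Nur77 and the GFP line made GFP from a doxycycline-inducible construct, and both were given 50 ng/ml doxycyclin for 18 h in all groups. The groups were Nur77 cells given 500 ng/ml LPS for 1 h, untreated Nur77 cells, GFP cells given the same LPS, and untreated GFP cells. H3K27ac and Pol II were mapped by ChIP-seq in all 4 groups (n = 2 libraries each), and HA-Nur77 in the Nur77 line only (n = 3 with LPS and n = 3 untreated), so no HA background from GFP cells was used here. The HA ChIP used a second crosslinker before formaldehyde. The HA antibody detects the induced protein only. The labels do not say whether replicates came from separate cultures, so p-values measure only the spread between these libraries, which may be technical.

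The H3K27ac libraries held 22.3 to 25.3 M tags after LPS and 26.1 to 28.4 M untreated, so the untreated libraries were the deeper ones. The Pol II libraries held 11.9 to 23.1 M tags and the HA libraries 6.41 to 18.2 M. All 12 macrophage markers examined, among them Spi1, Csf1r and Cd14, had H3K27ac and Pol II called over the gene in all 8 libraries, whereas 16 of 20 markers of other cell types had no Pol II region in any library. Replicate 3 of HA had narrower peaks (a median of 427 bp after LPS and 343 bp untreated) than the others (827 to 1017 bp), and the header of untreated Nur77 Pol II replicate 1 gives a fragment length of 1550 bp. Values below are deposited normalized tags, that is tags per 10 M tags of the library, summed over the called stretches of a region, and coordinates are on mm10. HA and Pol II values at an H3K27ac region are the full tags of the called peaks or regions that overlap it, which can reach beyond it.

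Only 10 of the 482 gained regions on chromosomes with a listed gene start covered one. The bases of some of these exceptions are shown, because they are where the new mark sat on a start. The windows below run from 250 bases before a start to 50 after it, 5′ to 3′ on the gene's strand, are credited to RefSeq (GRCm38.p6), and carry in capitals every match to the 4 motifs searched. The motifs were the Nur77 element NBRE (AAAGGTCA), AP-1 (TGANTCA), ETS (AGGAAGT) and NF-kB, each on both strands. Camp encodes the antimicrobial peptide cathelicidin, and its window lies at chr9:109849407-109849706 on the minus strand. Arhgef3 encodes an exchange factor for RhoA, and its window lies at chr14:27335787-27336086 on the plus strand. Gm46069 and Gm34096 are predicted genes, with windows at chr8:34689909-34690208 on the minus strand and chr8:34606454-34606753 on the plus strand. Of the regions covering a start, those over the Arhgef3, Gm34096 and Camp starts had the highest mean H3K27ac after LPS. The region over the Gm46069 start had the lowest, 7.51 tags. The bases at regions with means between these are not shown.
Camp: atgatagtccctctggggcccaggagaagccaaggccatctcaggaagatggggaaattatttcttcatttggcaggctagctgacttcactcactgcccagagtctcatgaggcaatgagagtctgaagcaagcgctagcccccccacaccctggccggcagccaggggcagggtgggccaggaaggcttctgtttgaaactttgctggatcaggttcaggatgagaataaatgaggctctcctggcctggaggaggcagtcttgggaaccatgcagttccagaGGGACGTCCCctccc
Arhgef3: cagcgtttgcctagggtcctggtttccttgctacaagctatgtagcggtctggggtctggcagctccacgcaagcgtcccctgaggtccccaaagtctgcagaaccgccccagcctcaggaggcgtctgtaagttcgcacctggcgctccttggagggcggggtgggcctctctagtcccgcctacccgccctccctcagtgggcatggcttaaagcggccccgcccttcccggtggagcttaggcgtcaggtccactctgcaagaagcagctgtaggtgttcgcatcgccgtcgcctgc
Gm46069: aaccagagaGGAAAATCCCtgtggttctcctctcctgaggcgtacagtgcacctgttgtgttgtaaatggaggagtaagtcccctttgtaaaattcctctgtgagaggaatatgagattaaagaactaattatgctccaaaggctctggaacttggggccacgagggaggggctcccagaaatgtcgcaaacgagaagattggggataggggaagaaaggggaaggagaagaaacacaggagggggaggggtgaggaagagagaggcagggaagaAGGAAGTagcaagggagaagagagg
Gm34096: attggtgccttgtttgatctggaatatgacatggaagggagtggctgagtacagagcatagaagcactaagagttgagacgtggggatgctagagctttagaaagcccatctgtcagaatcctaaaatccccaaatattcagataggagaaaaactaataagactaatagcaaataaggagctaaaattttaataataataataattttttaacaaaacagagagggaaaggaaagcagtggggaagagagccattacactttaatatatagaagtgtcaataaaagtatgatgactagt

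The Camp window held 1 NF-kB match, the Gm46069 window 1 NF-kB and 1 ETS match, and the other 2 windows none. Over the 12 start windows that gained regions covered, 5 held an ETS match (41.7%) and 3 an NF-kB match (25%), while none held NBRE or AP-1. These windows are not all separate stretches. The Gm41917 and Gm35192 windows overlap on opposite strands, and their ETS matches are the same bases, counted for each gene. The Peli3 windows overlap each other too. Among all 32851 windows in the table the shares were 9.35% for ETS, 8.46% for NF-kB, 1.51% for NBRE and 7.81% for AP-1. In the 444 windows of genes that gained regions were named for, the shares were 10.8%, 10.1%, 0.450% and 6.31% in the same order. No matches to different motifs overlapped in the 12 windows, and a match is only a match of letters.

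The gain at these starts differed in what accompanied it. At Arhgef3, H3K27ac read 42.3 and 51.6 tags in Nur77 LPS cells, against 19.3 and 20.1 in GFP LPS cells. The Pol II regions overlapping it, counted whole, read 234.9 and 328.8 tags in Nur77 LPS cells, with 6.89 in 1 untreated Nur77 library and no call in the other. In GFP LPS cells they read 17.8 and 79.8 tags, with no call in untreated GFP cells. The gained region over the Arhgef3 start thus overlapped called Pol II in all 4 LPS libraries. Whether Pol II covered the start itself was not tested. The gained region over the Gm34096 start was the one of the 10 with HA called in all 3 LPS libraries (30.5, 56.5 and 18.4 tags) and in no untreated library. Its Pol II was also called only after LPS, at 16.0 and 32.5 tags in Nur77 cells and 30.5 and 63.8 tags in GFP cells. At Peli3, which encodes a Pellino ubiquitin ligase of innate immune signalling, H3K27ac was low, at 10.3 and 9.95 tags in Nur77 LPS cells and 7.5 and 9.94 tags in GFP LPS cells. Pol II was called there before LPS too, at 14.8 and 21.2 tags in Nur77 cells, against 27.8 and 26.8 after it. In GFP cells it read 25.2 tags in 1 untreated library, against 27.7 and 29.4 after LPS. The region over the Gm41917 and Gm35192 starts had Pol II called in every library.

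Away from these starts, the gained regions were mostly distal. Their median width was 1556 bp (511 to 6385 bp), against 1158.5 bp for the 790 regions lost with LPS, those called in all 4 untreated libraries and no LPS library, 1205 bp for all merged regions and 3081 bp for the 27094 regions called in all 8 libraries. The median distance from a gained region to the nearest listed start was 25479 bp, against 9597.5 bp for regions called in all 8 libraries and 14782.5 bp for lost regions. A start was covered by 2.08% of gained regions, 31.8% of those called in all 8 and 5.74% of those lost. Of all merged regions 12.2% covered a start, their median distance to one was 17625.5 bp, and 82.4% lay inside a gene. Of the 497 members 311 lay inside the span of a gene (62.6%, against 65.1% of lost regions and 82.3% of regions called in all 8), 167 lay within 50 kb of one, and 19 had none within 50 kb. The median distance to a region called in all 8 libraries was 12930 bp, and 145 members (29.2%) lay within 5 kb of one. Another member lay within 20 kb of 34 of them, including pairs at Nfkbiz, Bach2, Arhgef3 and Atp8b4. Regions called in input were overlapped by 32 members (6.44%), against 16.5% of the regions called in all 8.

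H3K27ac at the members was low compared with regions that are marked throughout. The median member read 14.3 and 14.4 tags in the Nur77 LPS libraries and 15.8 and 13.3 tags in the GFP LPS libraries, while regions called in all 8 read medians of 66.9 to 73.8 tags in the same libraries. Only 16 members averaged over 50 tags over the 4 LPS libraries, and 97 averaged under 10. The lowest member averaged 6.57 tags, close to the calling thresholds of 6.31 to 6.72 tags in the LPS libraries and 5.99 to 6.32 in the untreated ones, so no call means below about that level and not absence of the mark. Just outside the rule lay 412 regions called in all LPS libraries and 1 untreated library (medians of 14.4 tags after LPS and 7.29 untreated) and 678 regions called in 3 LPS libraries and no untreated one (median of 9.65 tags). In bulk chromatin, more cells carrying the mark and more mark per cell cannot be told apart.

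The highest member lay within Nfkb1, which encodes a subunit of NF-kB (chr3:135667147-135673531), with 174.0 and 186.9 tags in Nur77 LPS cells and 169.2 and 145.6 tags in GFP LPS cells. Next came a member inside the alpha-kinase gene Alpk2, with 113.1 and 123.3 tags in Nur77 LPS cells and 171.2 and 145.2 tags in GFP LPS cells. A member 8052 bp from Atp8b4, a phospholipid transporter gene, read 101.7 and 128.8 tags in Nur77 LPS cells and 146.9 and 130.6 tags in GFP LPS cells. The 15 highest members also lay in Ly75, which encodes the endocytic receptor DEC-205, in Tasp1, which encodes a protease, in Shoc2, a scaffold of RAS signalling, in Dennd1a, in Adora2a, an adenosine receptor gene, and in Nfkbiz, which encodes the nuclear inhibitor IkB-zeta. The others lay near Tcp11, Tnni1, Gm8056, Ptgs2os2, Lpar1, the lysophosphatidic acid receptor gene, and Gm30305. The Nfkbiz member in this group overlapped a region called in input.

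**Figure D1:**
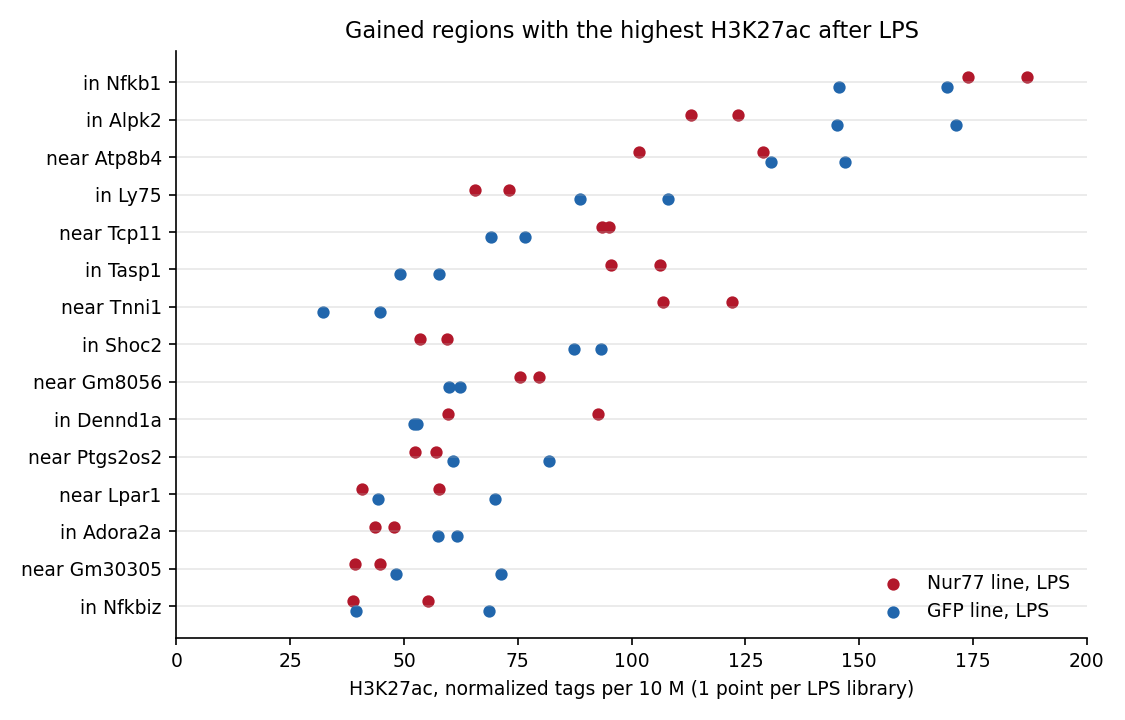
H3K27ac in normalized tags per 10 M (x axis, linear from 0) at the 15 gained regions with the highest mean after LPS (y axis), 1 point per LPS library, in the Nur77 and the GFP line (n = 2 each). No untreated library had a call there, so none is plotted; the Nfkb1 member leads at 145.6 to 186.9 tags, and most of the others lie under 125.

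HA-Nur77 peaks, which the rule did not use, were called at a larger share of members in every LPS library than in any untreated one. An HA peak overlapped 43.1, 54.7 and 46.9% of the 497 members in the 3 LPS libraries, against 8.45, 11.1 and 10.7% in the 3 untreated ones. The groups did not overlap. At regions called in all 8 H3K27ac libraries the shares were 53.8 to 61.5% after LPS and 48.3 to 55.4% untreated. At lost regions they were 12.9 to 22.9% after LPS and 19 to 24.4% untreated. At all merged regions they were 23.9 to 29.2% after LPS and 21.5 to 24.4% untreated. In these 3 sets the groups overlapped. Among regions up to 2 kb wide, the shares of members were 41.2 to 53.0% after LPS and 7.39 to 10.6% untreated. Those of regions called in all 8 were then 34.5 to 47.8% after LPS and 29.7 to 35.0% untreated. The HA lists held 22690, 28562 and 28680 peaks after LPS and 19900, 19684 and 25497 untreated, and cut to equal length the shares of members averaged 39.9% after LPS and 8.45% untreated (n = 3 each). The centres of the HA peaks over members lay a median of 178.25, 172.75 and 162 bp from the member's centre in the 3 LPS libraries, a distance that the members' width also limits.

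HA was called in all 3 LPS libraries and no untreated library at 114 members (22.9%). The same held for 1.57% of all merged H3K27ac regions. HA was called in all 6 libraries at 26 members (5.23%, beside 13.4% of all merged regions) and in none at 198 (39.8%, beside 62.3%). With replicate 3 left out of both conditions, an alternative added after the data were seen, 141 members had HA in the remaining LPS libraries and in neither untreated one. HA was also counted apart for members outside and inside genes: in the LPS libraries 64.5, 74.2 and 69.4% of the 186 outside and 30.2, 43.1 and 33.4% of the 311 inside, and in the untreated libraries 14.5, 17.2 and 18.8% outside and 4.82, 7.40 and 5.79% inside. The share was higher outside genes in all 6 libraries, and this was not tested. Other H3K27ac regions were not divided by place, so the contrast is not shown to be particular to the members.

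**Figure D2:**
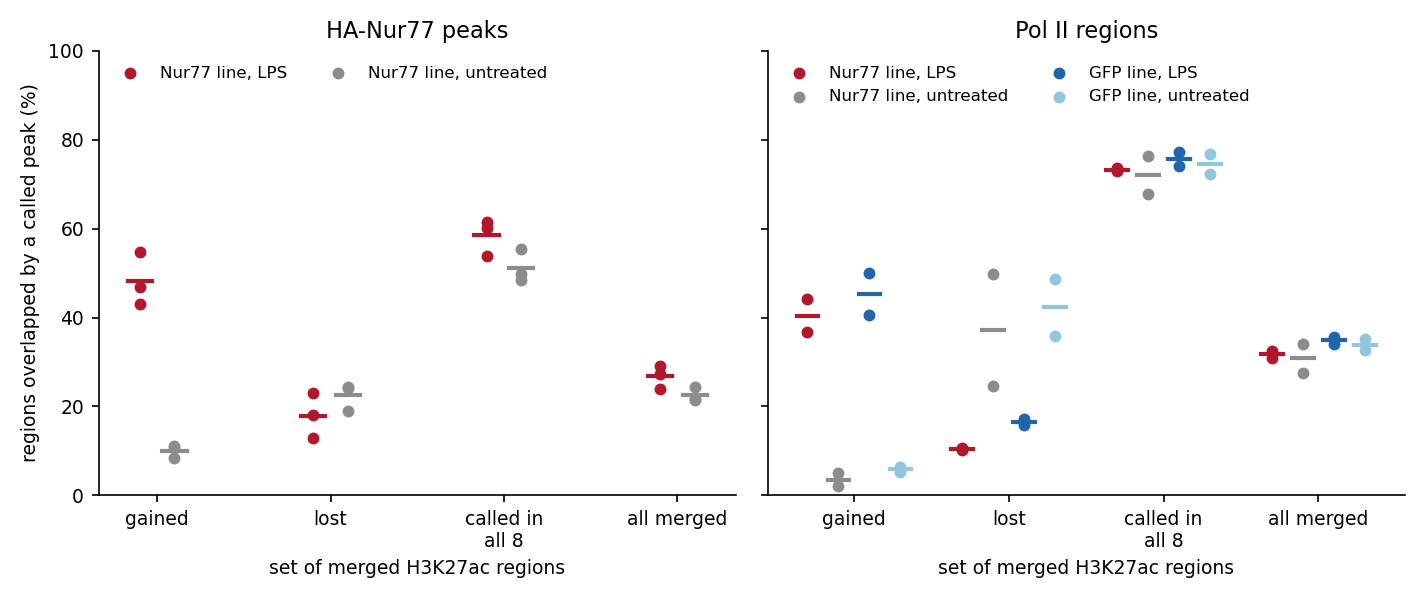
Share of merged H3K27ac regions overlapped by a called peak (y axis, percent), 1 point per library and bars at the group mean, for HA-Nur77 (left) and Pol II (right), in 4 sets of regions (x axis: gained, lost, called in all 8 libraries, all merged). At the gained regions the LPS libraries lie at 43.1 to 54.7% for HA and 36.8 to 49.9% for Pol II, above all untreated libraries at 2.01 to 11.1%.

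The strongest of the members with HA after LPS only were named for neighbours with diverse roles. A member 10962 bp from Lpar1 read 163.1, 150 and 72.3 HA tags in the 3 LPS libraries. One 28140 bp from Mtpn, the myotrophin gene, read 122.5, 180.6 and 66.3 HA tags. One 14268 bp from Gm32296, which overlapped a region called in input, read 80.5, 196.1 and 46.6 HA tags. In each of these the third replicate was the lowest, and no untreated library had a call, at calling thresholds of 21.8, 17.7 and 9.59 tags. The other 2 lay near Tcp11 and in Gm35158.

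HA levels could be compared over all libraries at 25 members, those over a merged HA region with a peak in every HA library. limma called 13 of these higher after LPS and none lower, and at an unadjusted p under 0.05, 20 were higher and none lower. Of all 11234 HA regions tested 3.06% were called higher and 1.46% lower. The median log2 change was 1.19 at the 25 members and -0.03 over all regions tested. With the replicate number as a block, 22 of the 25 were called higher, beside 19.5% of all regions. Without LPS replicate 1 and without untreated replicate 1 no member was called, nor was any of the 11892 and 12013 regions then tested, while the members' median log2 change was 1.12 and 1.06. Without LPS replicates 2 and 3, 15 and 8 members were called, and without untreated replicates 2 and 3, 9 and 12 were. These counts were not set beside shares of all HA regions, so they do not show whether members stood out in those fits. With replicate 3 of both conditions left out, 1 member was called, the one region called of 12310, at a median of 1.62. Without scaling beyond the deposited one 3 were called.

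The HA change was largest inside Nfkb1, where HA read 406.0, 567.7 and 118.1 tags after LPS and 24.2, 44.7 and 11.4 tags untreated, a log2 change of 3.54 ± 0.37 (SE; limma, adjusted p = 0.0039). This member was also the one with the highest H3K27ac. The member near Tnni1, the slow skeletal troponin I gene, which lies 448 bp away, read 509.0, 382.1 and 207.4 HA tags after LPS and 74.8, 53.0 and 29.9 untreated (log2 change 2.68 ± 0.26 SE). At 20719 bp from Litaf, a gene named for its induction by LPS, HA read 190.7, 192.8 and 61.7 tags after LPS and 42.9, 31.4 and 12.2 tags untreated. In Ly75 HA read 192.9, 110.4 and 89.9 tags after LPS and 34.3, 21.1 and 22.1 tags untreated. In Maml2, a Notch coactivator gene, it read 221.9, 139.9 and 150.4 tags after LPS and 46.0, 45.2 and 31.0 tags untreated. At all of these every LPS library stood above every untreated one. A member 38088 bp from Gm31739 completed the 6 largest changes. High HA after LPS was also found in Alpk2 (272.6, 349.3 and 92.6 tags, against 25.7, 24.1 and no call untreated) and at the second member near Atp8b4 (331.3, 219.5 and 169.3 tags, against 87.3, 58.9 and 40.9 untreated).

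**Figure D3:**
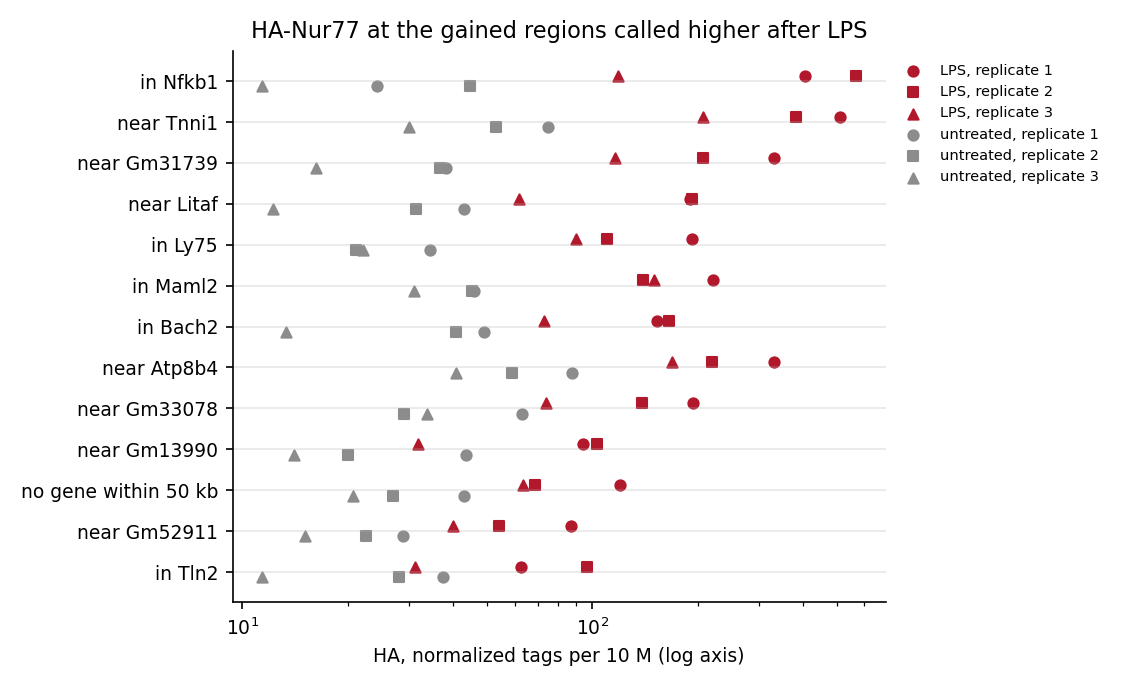
HA-Nur77 in normalized tags per 10 M (x axis, logarithmic) at the 13 gained regions that limma called higher after LPS (y axis), with each replicate as its own symbol (n = 3 LPS and n = 3 untreated). Replicate 3 lies to the left in most rows, and within each replicate number the LPS point lies to the right of the untreated one.

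Pol II, also not used by the rule, followed the same course in both lines. A Pol II region overlapped 36.8 and 44.1% of members in the Nur77 LPS libraries, against 2.01 and 5.03% in untreated Nur77 cells. In the GFP line the shares were 40.6 and 49.9% after LPS and 6.44 and 5.23% untreated. The LPS and untreated groups did not overlap in either line, and the LPS shares of the lines overlapped. At regions called in all 8 H3K27ac libraries Pol II shares lay between 67.9 and 77.3% in every group, and at all merged regions between 27.5 and 35.6%. At lost regions they were 10.3 to 17.1% after LPS and 24.7 to 49.9% untreated. Where at least 50% of a member had to be covered, the mean share was 29.8% after LPS and 2.36% untreated (n = 4 each).

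In the Nur77 line 139 members (28.0%) had Pol II in both LPS libraries and no untreated library, and so did 2.38% of all merged H3K27ac regions. In the GFP line 151 members (30.4%) did, beside 2.42% of all. In both lines together 102 members (20.5%) had Pol II in all 4 LPS libraries and in no untreated one, beside 0.999% of all. Pol II was called in no library at 215 members (43.3%), beside 54.2% of all merged regions, 40.5% of lost regions and 14.4% of those called in all 8. In the LPS libraries the Pol II shares were higher outside genes, as for HA: 51.6 and 64.0% of the 186 outside in Nur77 LPS cells and 60.2 and 71.5% in GFP LPS cells, against 28.0 and 32.2% and 28.9 and 37.0% of the 311 inside. In untreated Nur77 replicate 1 the order was the other way, with 1.61% outside and 2.25% inside. Shares of other H3K27ac regions outside and inside genes were not counted for Pol II either. Pol II in both Nur77 LPS libraries and neither GFP LPS library was found at 4 members, and the opposite at 15 (0.805 and 3.02%, beside 0.575 and 1.95% of all merged regions).

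HA and Pol II calls were also counted together at the members. The same joint shares were not counted over other H3K27ac regions, so they are not shown to be particular to the members. Of the 114 members with HA after LPS only, 52 (45.6%) had Pol II in all 4 LPS libraries and no untreated one, and 16 (14.0%) had no Pol II in any library. Of the 198 members without HA in any library, 10 (5.05%) had Pol II after LPS only and 135 (68.2%) had none. The 114 members also had a higher H3K27ac level (a median of 19.5 tags, against 11.8 for the 198) and 49 of the 114 lay inside genes, against 162 of the 198; the part of either in this was not tested. The 135 members without HA and Pol II were 27.2% of all members.

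Pol II levels could be compared over all 8 libraries at 24 members, over 23 merged Pol II regions with calls in all 8, although Pol II over the member itself was called in all 8 at only 7 members. These regions were 1.87 to 38.5 kb wide and often reached into the gene, so their tags are not those of the member alone. In the Nur77 line limma called 20 of the 24 higher after LPS and none lower, beside 15.6% higher of 17081 Pol II regions tested. In the GFP line it called 16 higher and none lower, beside 10.0% higher of all. At an unadjusted p under 0.05 none was lower in either line. The median log2 change at the 24 was 1.74 in the Nur77 line and 1.40 in the GFP line, and over all regions 0.02 and 0.01. Per kb of called length 6 members passed in each line, beside 1101 regions higher in the Nur77 line and 716 in the GFP line, and the members' median log2 change was 0.57 in the Nur77 line and 0.41 in the GFP line. Without scaling beyond the deposited one, which moved the median of all regions to -0.40 in the Nur77 line and -0.15 in the GFP line, 15 members were higher and 1 lower in the Nur77 line and 15 higher in the GFP line, beside 1411 higher and 4668 lower of all regions in the Nur77 line (2659 and 2505 with scaling) and 1300 and 1893 in the GFP line (1712 and 1452 with scaling).

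The Pol II region over both Nfkbiz members, which spans 38.5 kb, read 6038.4 and 6299.4 tags in Nur77 LPS cells, against 872.9 and 729.59 in untreated Nur77 cells. In the GFP line it read 6774.6 and 5347.4 tags after LPS and 1058.66 and 710.8 untreated. The log2 changes were 3.37 ± 0.26 and 2.96 ± 0.26 (SE). At Csf3, which encodes the cytokine G-CSF, the region read 1548.3 and 1496.1 tags in Nur77 LPS cells, against 284.8 and 266.2 in untreated Nur77 cells, and 456.5 and 915.0 in GFP LPS cells, against 96.4 and 163.4 in untreated GFP cells. At Adora2a it read 194.6 and 293.2 tags in Nur77 LPS cells, against 21.8 and 49.6 untreated, and 82.1 and 303.2 in GFP LPS cells, against 7.99 and 23.8 untreated. At all 3 loci each LPS library stood above each untreated library of its line. Gm47922 and Gm11958 had log2 changes of 3.86 ± 0.37 and 3.04 ± 0.35 (SE) in the Nur77 line and 3.49 ± 0.37 and 3.17 ± 0.35 in the GFP line. Sod2, which encodes the mitochondrial superoxide dismutase, was called higher in both lines (2.70 ± 0.21 and 2.34 ± 0.21 SE), but per kb of called length its log2 changes were -0.48 and -0.70 and not called.

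**Figure D4:**
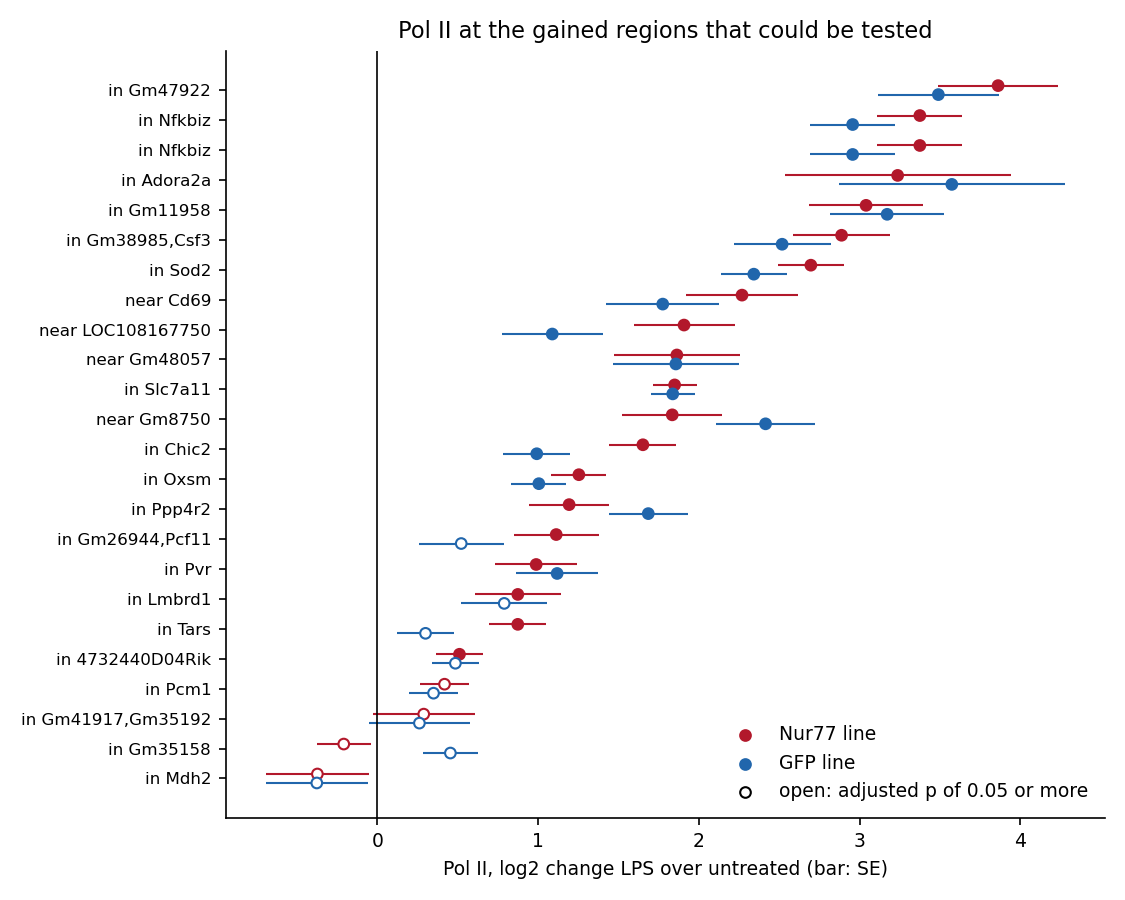
Log2 change of Pol II after LPS over untreated (x axis) at the 24 gained regions with a Pol II region in all 8 libraries (y axis, named by gene), in the Nur77 and the GFP line, with SE from limma (n = 2 libraries per group). Filled points passed an adjusted p of 0.05; 22 of 24 points are positive in the Nur77 line and 23 of 24 in the GFP line.

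The change in Pol II after LPS was not shown to differ between the lines at any member. limma called 0 of 24, and 0% of the 17081 regions tested; at an unadjusted p under 0.05 it gave 1 member and 476 regions. No other setting run called any. After LPS itself, 1 member had more Pol II in Nur77 than in GFP cells and none had less, beside 0.884% higher and 0.609% lower of all regions. At an unadjusted p under 0.05, 4 were higher and 2 lower. The 1 member lay in Slc7a11, the cystine transporter gene, where Pol II read 1974.5 and 1894.9 tags in Nur77 LPS cells, against 1101.78 and 1301.0 in GFP LPS cells (log2 difference 0.78 ± 0.14 SE, adjusted p = 0.0469). Untreated Nur77 cells read 779.6 and 665.9 tags there, against 348.0 and 402.9 in untreated GFP cells. That call was lost on leaving out any one of the 8 libraries, and with the replicate number as a block 3 members were higher and 1 lower, beside 2165 of the 17081 regions called in either direction.

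Pol II was also followed over the genes that the members were named for, in a comparison added after the data were seen. For each gene the tested Pol II region with the highest tags over its span and 1 kb around was taken, which gave 307 of the 462 genes named, over 298 regions. In the Nur77 line 123 (40.1%) were called higher and 16 (5.21%) lower, beside 18.3% higher and 12.9% lower of 16294 genes. In the GFP line 86 (28.0%) were called higher and 10 (3.26%) lower, beside 10.7% higher and 7.83% lower. Of these, 85 were higher and 7 lower in both lines, and for 13 of the 85 the Pol II region overlapped the member itself. Neighbouring genes can share such a region, as Nxpe3 and Nfkbiz did. Cd40, the costimulatory receptor gene, read 1433.1 and 2537.3 Pol II tags in Nur77 LPS cells, against 168.2 and 114.9 untreated, and 2328.1 and 2074.33 in GFP LPS cells, against 118.19 and 97.5 untreated. Tnfaip3, the gene of the NF-kB feedback inhibitor A20, read 1989.2 and 2521.5 tags in Nur77 LPS cells, against 277.4 and 235.5 untreated, and 3210.4 and 1767.9 in GFP LPS cells, against 284.8 and 237.5 untreated. Both lay beside a gained region and not under it. Lpp, Smyd1 and Cdk6, chosen after their values were seen, had log2 changes of 4.33, 3.58 and 3.14 in the Nur77 line and 4.56, 3.74 and 3.56 in the GFP line.

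The gene lists held few of the members. Of 28 genes of the NF-kB pathway and its feedback 4 gave a member its name (Nfkb1, Nfkbiz, Tnfaip3 and the signalling adaptor Traf3), of 27 cytokines and chemokines 2 (Il1rn and Csf3), and of 30 induced effectors 4 (Cd40, Cd69, Sod2 and Slc7a11). Among all protein-coding genes 1.45% did. None of 19 AP-1 genes, 26 other immediate-early genes, 24 interferon response genes and 12 macrophage lineage genes did. Within 50 kb of a member lay 4 AP-1 genes (Fos, Batf, Maff and Jdp2), 7 cytokine genes (Il1a, Il1b, Il1rn, Lif, Csf2, Csf3 and Cxcl16), 6 NF-kB genes and 6 induced effectors, and none of the other 3 lists, beside 3.46% of protein-coding genes. No member lay at Nr4a1, Nr4a2 or Nr4a3.

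Members at these list genes differed in what they carried. The one 10703 bp from Tnfaip3 read 30.2 and 27.4 H3K27ac tags in Nur77 LPS cells and 23.5 and 28.9 tags in GFP LPS cells, with HA only after LPS (65.3, 89.6 and 29.3 tags). The one 751 bp from Il1rn, the interleukin-1 receptor antagonist gene, read 10.7 and 19.5 H3K27ac tags in Nur77 LPS cells and 27 and 30.7 tags in GFP LPS cells. The Pol II regions overlapping it, counted whole and so not the member alone, read 685.7 and 1542.2 tags in Nur77 LPS cells with no call untreated. In GFP LPS cells they read 2833.7 and 2246.0 tags, against 13 and 40.6 untreated. Here both marks were lower in the Nur77 line in each library, but the H3K27ac difference missed the threshold (limma, adjusted p = 0.0651). The one 8566 bp from Cd69, an early activation receptor gene, read 29.1 and 24.6 H3K27ac tags in Nur77 LPS cells and 7.5 and 12.2 tags in GFP LPS cells. That difference was called, with a log2 of 1.45 ± 0.34 (SE; limma, adjusted p = 0.0109). Its HA was called only after LPS (52.9, 46.8 and 12.3 tags). At Csf3 H3K27ac was also called higher in the Nur77 line, at 18.6 and 13 tags, against 6.51 and 7.07 tags in the GFP line (limma, adjusted p = 0.0471). Those GFP values lie close to the calling thresholds of the 2 libraries, 6.31 and 6.63 tags. At Sod2, Traf3, Cd40 and Slc7a11 H3K27ac was not called different.

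After LPS, H3K27ac differed between the lines at 74 of the 497 members, 37 higher and 37 lower in the Nur77 line (7.44% each). Of the 29800 regions called in all 4 LPS libraries 13.2% were higher and 14.8% lower. The median log2 difference was 0.08 at the members and 0.0029 over all regions. At an unadjusted p under 0.05, 131 members differed, beside 11785 of all regions. With a limit chosen after the values were seen, 22.1% of the members, whose H3K27ac level was low, lay below -0.5 and 22.9% above 0.5 on the log2 scale, beside 15.4% and 16.5% of all regions. Leaving out either GFP LPS library left 1 library in that group, so whether the even split depended on 1 library cannot be decided. Without scaling beyond the deposited one, 35 members were higher and 51 lower, beside 3263 higher and 5195 lower of the 29800 regions. The rule asked for calls in both lines, which left out regions marked in 1 line only.

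The largest difference was near Nt5c1a, a cytosolic nucleotidase gene, 60 bp away, where H3K27ac read 9.63 and 6.5 tags in Nur77 LPS cells, against 65.7 and 62.8 tags in GFP LPS cells (log2 -2.81 ± 0.29 SE, adjusted p = 0.000141). Pol II there read 7.89 tags in 1 Nur77 LPS library with no call in the other, against 97.9 and 127.2 in GFP LPS cells. In Bach2, a transcriptional repressor gene, H3K27ac read 6.27 and 8.53 tags in Nur77 LPS cells, against 25.8 and 32.9 tags in GFP LPS cells, over a region also called in input. Phlpp1, which encodes an Akt phosphatase, Rwdd1 and Dcbld2 followed, with log2 differences of -1.57, -1.54 and -1.54. Per kb of called length the difference in Phlpp1 was 0.16 and not called. Higher in the Nur77 line were a second member in Dennd1a (54.9 and 50.2 tags in Nur77 LPS cells, against 23.5 and 7.51 in GFP LPS cells), one near n-TVcac3 (52.2 and 35.1, against 13.8 and 10.2), and the one near Tnni1 (107.0 and 122.1, against 44.8 and 32.26; log2 1.63 ± 0.18 SE). Members in Parn, which encodes a poly(A) ribonuclease, and in Asmt, which encodes an enzyme of melatonin synthesis, had log2 differences of 1.62 ± 0.49 and 1.59 ± 0.34 (SE). Their GFP LPS values, 7.89 and 7.07 tags in Parn and 7.89 and 5.97 in Asmt, lie close to the calling thresholds of 6.31 and 6.63. The lowest Nur77 LPS values near Nt5c1a (6.5), in Bach2 (6.27) and in Dcbld2 (5.69) also lie close to theirs, 6.72 and 6.5. The rule required a call in every LPS library, so the sizes of these differences depend on that floor.

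**Figure D5:**
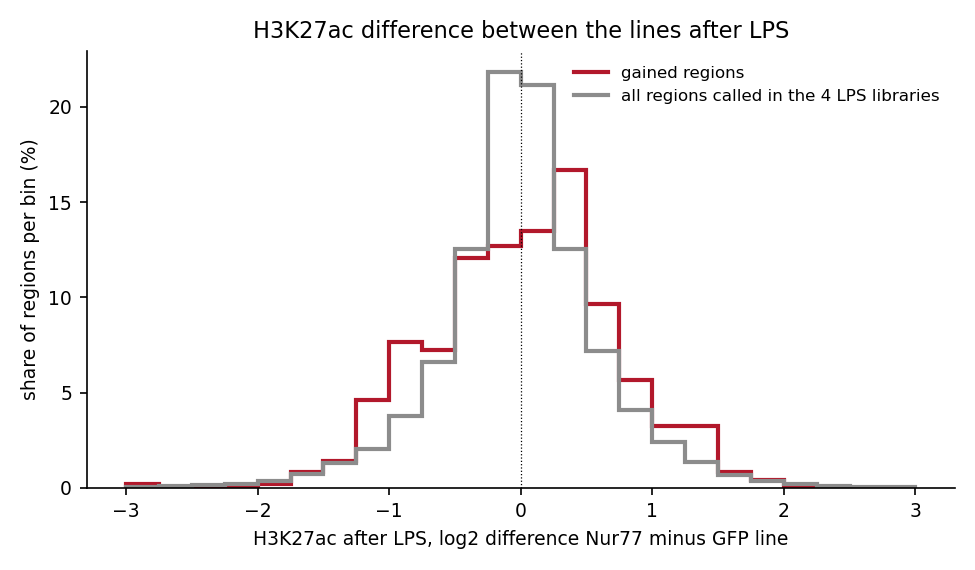
Distribution of the H3K27ac log2 difference after LPS, Nur77 minus GFP line (x axis, bins of 0.25), as the share of regions per bin (y axis, percent), for the 497 gained regions and for all 29800 regions called in the 4 LPS libraries. The gained regions have a median of 0.08 and run from -2.81 near Nt5c1a to 1.95 in Dennd1a.

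The differences between the lines were also counted by HA and Pol II calls. Of the 114 members with HA after LPS only, 11 were higher and 16 lower in H3K27ac in the Nur77 line, with a median log2 difference of -0.10. Of the 198 members without HA, 14 were higher and 7 lower, with a median of 0.18. Of the 102 members with Pol II after LPS only, 9 were higher and 18 lower, with a median of -0.22, and of the 215 without Pol II, 17 were higher and 7 lower, with a median of 0.20. These groups also differed in H3K27ac level (medians of 22 tags for the 102 and 11.5 for the 215), and the part of level in the split was not tested. The HA and Pol II splits are not separate observations: the 114 and the 102 shared 52 members, and the 198 and the 215 shared 135. Of all 29800 regions tested 13.2% were higher and 14.8% lower, and these were not divided by HA or Pol II calls.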

How the data were processed

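Chromatin from RAW264.7 lines was mapped by ChIP-seq in 22 libraries for HA, Pol II and H3K27ac, with 4 input libraries. The submitters' processing notes name HISAT2 2.1.0 as aligner, mm10 as the build and HOMER for peaks, with no HOMER version in the sources used here. Each library was called alone and without input, per the file headers: HA in factor style, the other targets in histone style. The deposited signal is the normalized tag count, tags per 10 M tags of the library. Of the H3K27ac libraries 3 were called with the local filter left on, yet all 8 headers give 0 regions filtered by local signal. Intervals from counting were not computed, since the files list only called peaks; a missing call means a value below the calling threshold.

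Peaks of one target were merged at a shared 1 bp and tags summed. For tests, regions with a peak in every library of the fit were given trimmed-mean-of-M scaling (30% of M and 5% of A trimmed) and fitted as log2(tags + 1) with limma 3.58.1 (trend) in R 4.3.3. P-values were adjusted by Benjamini-Hochberg over all regions tested, at 0.05. The fits were also run on simulated data, but that outcome is not given here and no result rests on it. Where several tested regions overlapped a member, the one with the most tags stood for it. Replicate numbers paired the HA libraries (correlation of deviations from group means 0.48 to 0.83 over 3 pairs) and went along with Pol II (0.35 to 0.63), not with H3K27ac (0.08). Genes and starts are from RefSeq (GRCm38.p6); a member was named for the gene it overlaps, otherwise for the nearest within 50 kb. Named members were the 15 with the highest H3K27ac, the largest called changes per test (6 per direction, 5 between lines), the 6 with the highest HA, the 5 strongest with HA after LPS only, and up to 5 per gene list. The members and lists were chosen with earlier results of these data known.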

Additional observations from a re-analysis of the deposited data

How the results depend on the processing

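The number of gained regions was 484 with merging up to 500 bp apart (462 of the 497 members kept), 497 with lists of equal length, where only 412 members (82.9%) were kept, 465 without regions over input, 562 to 689 on leaving out 1 H3K27ac library, and 1008 with only libraries that share 1 calling option, where fewer libraries have to agree. With equal list lengths the share of members with HA was 39.9% after LPS and 8.45% untreated, and with at least 50% of a member covered the share with Pol II was 29.8% and 2.36%. Without the filter on calls, with missing values at 0, 127 members were higher in Pol II in the Nur77 line, 135 in the GFP line, 18 differed in Pol II and 26 in H3K27ac between lines, and 120 in HA; many enter through the LPS libraries alone and had to differ. Per kb, 6 and 6 members were higher in Pol II, 0 differed in Pol II and 23 in H3K27ac between lines; Sod2 turned to -0.48 (Nur77) and -0.70 (GFP) and Phlpp1 to 0.16, and the cause was not tested. Without scaling 3 members differed in HA and 0 in Pol II between lines, and the median of all HA regions moved to 0.07. With the replicate block 22 differed in HA, and 4 in Pol II and 125 in H3K27ac between lines; no call of a named member was lost under it. With HA replicate 3 left out 1 differed. Leaving out 1 library gave 14 to 20 (Pol II, Nur77 line), 11 to 18 (Pol II, GFP line), 0 (Pol II between lines, and difference of the LPS effects), 41 to 69 (H3K27ac between lines) and 0 to 15 (HA); leaving out untreated Nur77 Pol II replicate 1 gave 141 members with Pol II after LPS only in the Nur77 line and 102 in both lines. Over the 46 called values of named members, 492 repeats kept the call, 99 lost it and 3 reversed. Depth limits what no call means: HA thresholds ran from 8.77 to 21.8 tags.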
